A study of Homo sapiens with 4 samples.

Results

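The genes examined here encode the proteins that mark, license and fire replication origins and that build the replication fork. They were chosen by name, with earlier results of these data known. They are 49 genes whose symbol stands in the platform annotation, out of 19775 genes with a probe set of their own. The lists of other genes below were chosen in the same way. Shares of these sets beside those of all genes are descriptions, not tests. All 49 were found, and each was represented by the brightest of its probe sets. Of these genes, 15 act in origin licensing, 8 in origin firing, and 26 at the fork, as polymerases and their partners.

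RNA came from U937, a human line of monocyte-like cells that was established from a histiocytic lymphoma. The PIR knock-down cells carried the hairpin shPIR#7 in the lentiviral vector pSICO-R, and the control cells carried the same vector empty; 1 hairpin was used. The protein of PIR is pirin, a nuclear member of the cupin family that binds iron. For each condition 3 RNA extractions were mixed into 1 pool, and the pool was hybridised to 2 Affymetrix HG-U133 Plus 2.0 arrays. Because both arrays of a condition carried the same RNA, each condition counts as 1 sample, no p-value for the knock-down can be given, and every SD below is between 2 arrays of 1 pool.

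A replication origin is licensed when the origin recognition complex (ORC), CDC6 and CDT1 load the MCM2-7 helicase onto DNA as an inactive double ring, and geminin blocks CDT1 once licensing is over. The kinase CDC7 with its activator DBF4 then phosphorylates the loaded helicase, and CDC45 and the GINS complex join it to form the active helicase. At the fork, polymerase alpha with primase starts each strand, the clamp loader RFC places the clamp PCNA, polymerases epsilon and delta extend the strands, and FEN1 and LIG1 join the lagging-strand pieces. Many of these genes are transcribed in dividing cells under E2F factors.

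The labels were first checked on PIR itself. PIR had signals of 83.4 and 91.5 on the knock-down arrays, against 1813 and 1882 on the empty-vector arrays. This was 17.6-fold lower in the knock-down pool. The 3' over 5' signal ratios of GAPDH and ACTB, a sign of RNA integrity, ran from 0.980 to 1.18 on the knock-down arrays and from 0.959 to 1.18 on the empty-vector arrays. In the whole set of genes 10266 were bright enough to be called measured, meaning that their mean log2 signal over the 4 arrays reached the 60th percentile of all probe sets. All 49 replication genes passed this limit, which does not look at the groups.

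Replication genes were lower in the knock-down pool by small amounts. The median log2 difference over the 49 genes was -0.23 (1.17-fold lower), against 0.04 over all measured genes. Of the 49, 39 had a negative difference, which is 79.6%, against 45% of measured genes, and 10 a positive one, against 55%. When arrays were scaled to a common median, which moved the median of all measured genes by 0.12, 30 were negative and 19 positive. The 45% belongs to the deposited scaling, and the share of measured genes in this one is not given here. Relative to the median of measured genes, the median of the 49 stood at -0.27 in both scalings. The genes whose sign turned under median scaling were CDC45, CHAF1B, GINS4, POLD3, RFC4, RPA1, RPA2, RPA3 and TIMELESS. Quantile normalization turned the sign of CLSPN and RPA2. On the arrays themselves, 33 genes (67.3%) had both knock-down signals below both empty-vector signals, whereas 30.7% of measured genes did. Both knock-down signals lay above both empty-vector signals in 6 genes (12.2%), against 40.2% of measured genes. In the other 10 genes the arrays of the pools overlapped.

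Few of the differences were large. A size rule asked for a pool difference of at least 1.5-fold with each of the 4 array-by-array differences at least 0.32 on the log2 scale. It was met downwards by 3 genes, CDC7, MCM2 and POLE2, which is 6.12% of the 49 and close to the 4.46% of measured genes that met it. It was met by 5 genes without knock-down replica 1 and by 6 without empty-vector replica 2. With an array left out there are fewer array-by-array differences to meet, so the 4.46% is not a background for these counts. None of the 49 met the size rule upwards, where 7.89% of measured genes did. A 2-fold rule, with each array-by-array difference at least 0.5 on the log2 scale, was met by 0.935% of measured genes downwards and by no replication gene in either direction. A limma fit on the 4 arrays, which measures the pools against the spread between hybridisations and says nothing of the conditions, called 25 of the 49 lower and 5 higher at an adjusted p of 0.05, against 16.5% and 23.5% of measured genes. With the replica number as a block it called 26 and 5, against 16.2% and 23%. In RNA from a whole culture, fewer cells in S phase and less transcript per cell cannot be told apart.

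**Figure D1:**
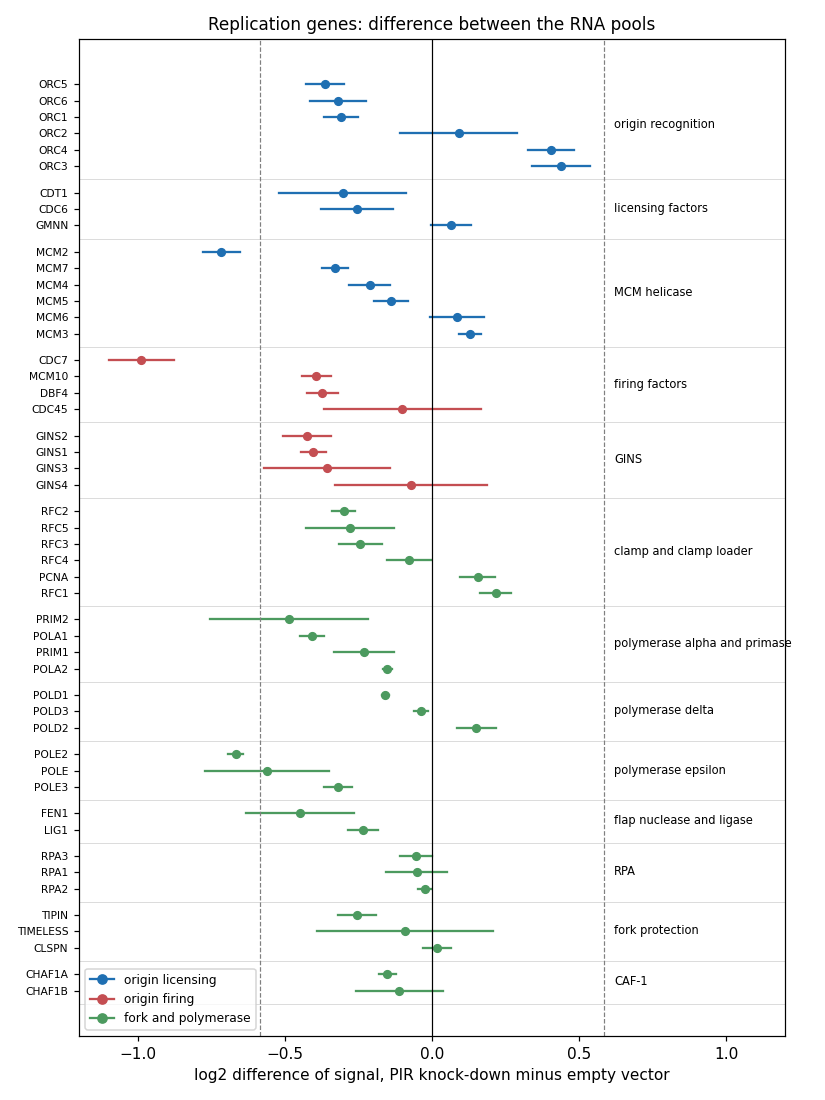
Each point is the log2 difference of signal (PIR knock-down minus empty vector) of 1 gene on its brightest probe set, and the line spans the 4 array-by-array differences; colours mark the 3 groups and dashed lines mark 1.5-fold. CDC7, MCM2 and POLE2 lie left of the lower dashed line, ORC3 and ORC4 lie farthest right, and the other points lie between -0.56 and 0.22.

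The stretches upstream of the 3 genes that met the size rule, and of ORC3, the gene with the highest positive difference, are shown to compare the E2F-type letters near their start sites. They are RefSeq promoter windows of GRCh38.p14, 250 bases before to 50 after the start, given 5' to 3' on the strand of the gene. Capitals mark the E2F consensus, searched on both strands as TTCCCGC in its first form, TTGGCGC in the second, TTCGCGC in the third and TTGCCGC in the fourth; matches of different forms may overlap. The windows are chr1:91500601-91500900 on the + strand for CDC7, chr3:127598161-127598460 on the + strand for MCM2, chr14:49688165-49688464 on the - strand for POLE2 and chr6:87589885-87590184 on the + strand for ORC3.
CDC7: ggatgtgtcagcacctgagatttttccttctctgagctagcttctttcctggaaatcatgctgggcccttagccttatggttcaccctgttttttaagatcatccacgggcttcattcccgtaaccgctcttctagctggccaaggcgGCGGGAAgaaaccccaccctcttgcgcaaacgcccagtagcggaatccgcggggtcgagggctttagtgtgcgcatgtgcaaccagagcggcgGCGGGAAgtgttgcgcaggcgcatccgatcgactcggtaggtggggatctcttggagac
MCM2: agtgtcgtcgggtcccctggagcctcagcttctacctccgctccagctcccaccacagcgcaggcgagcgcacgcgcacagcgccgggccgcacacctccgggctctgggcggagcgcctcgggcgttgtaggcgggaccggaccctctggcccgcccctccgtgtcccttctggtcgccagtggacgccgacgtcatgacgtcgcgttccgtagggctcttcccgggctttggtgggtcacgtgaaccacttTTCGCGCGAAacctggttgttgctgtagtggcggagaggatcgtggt
POLE2: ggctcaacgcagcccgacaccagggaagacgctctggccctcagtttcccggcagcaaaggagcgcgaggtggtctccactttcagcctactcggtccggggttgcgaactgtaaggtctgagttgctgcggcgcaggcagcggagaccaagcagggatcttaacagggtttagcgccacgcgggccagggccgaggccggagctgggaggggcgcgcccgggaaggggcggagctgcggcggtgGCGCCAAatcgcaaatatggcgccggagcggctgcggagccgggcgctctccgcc
ORC3: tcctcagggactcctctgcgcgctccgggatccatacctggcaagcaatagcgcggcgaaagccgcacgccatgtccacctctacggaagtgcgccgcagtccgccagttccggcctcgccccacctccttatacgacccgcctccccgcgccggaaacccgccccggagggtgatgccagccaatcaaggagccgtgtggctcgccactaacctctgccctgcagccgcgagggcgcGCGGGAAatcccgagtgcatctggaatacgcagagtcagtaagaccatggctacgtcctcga
CDC7 held 2 matches, which began 102 and 9 bases before the start. MCM2 held 2 overlapping matches that began 3 and 6 bases after the base at which its transcript starts. POLE2 held 1 match, 5 bases before its start, and ORC3 held 1, 12 bases before its start. Both MCM2 matches are of the third form, one of the 2 forms added after the sequences had been seen; with the first 2 forms alone the MCM2 window held none, and CDC7, POLE2 and ORC3 kept theirs.

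Over all replication genes the motif was common. RefSeq promoter windows matched 43 of the 49 genes, and the first window listed was used for genes with several. An E2F-type match stood in 29 of the 43 (67.4%), against 13.1% of the 27305 genes with a window and 21.3% of the 8498 measured genes with one. The share was 61.5% for licensing, 57.1% for firing and 73.9% for fork genes. With the first 2 forms alone the shares were 58.1% of replication genes and 15.2% of measured genes. The motif did not separate the genes by their difference: the median was -0.24 over the 29 genes with a match and -0.29 over the 14 without. The letters CCAAT, a box bound by NF-Y, stood on either strand in 24 of the 43 windows (55.8%), against 37.0% of measured genes. The cell cycle homology region of mitotic promoters (TTTGAA or TTCGAA) stood in 2 of them (4.65%), against 11.5%.

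Origin recognition genes went both ways. ORC1, a subunit whose protein level varies through the cell cycle, had signals of 1158 and 1174 on the knock-down arrays, against 1500 and 1400.2 on the empty-vector arrays, a log2 difference of -0.31. ORC5 had a log2 difference of -0.36, and its second probe set had -0.50. ORC6, a subunit less tightly bound to the complex, had -0.32 on a probe set whose identifier (_x_at) marks probes that may bind related transcripts. ORC3, a core subunit, had signals of 1873 and 1836 on the knock-down arrays, against 1445 and 1285 on the empty-vector arrays, and was 1.36-fold higher. ORC4, another core subunit, had 2618 and 2403 with PIR knocked down, against 1912 and 1869 with empty vector, and was 1.32-fold higher, with 0.27 on its second probe set. Neither pair of arrays overlapped with its counterpart, but neither gene reached 1.5-fold. ORC2 overlapped (log2 difference 0.09). The median of the 6 subunits was -0.11, and 0.02 when arrays were scaled to a common median, so the complex as a whole had no direction that held.

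Among the licensing factors, CDC6, the ATPase that helps ORC load the helicase, had -0.25, and -0.41 on its second probe set. CDT1, the loading factor that carries the helicase to ORC, had signals of 2448 and 3290 on the knock-down arrays, against 3518 and 3498 on the empty-vector arrays. Its knock-down arrays differed from each other by 0.42 on the log2 scale, more than the pools did (-0.30). The second CDT1 probe set went the opposite way, with 886 and 1129 with PIR knocked down, against 629.5 and 743 with empty vector. GMNN, which encodes geminin, had a difference of 0.07 and overlapping arrays.

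The 6 subunits of the MCM2-7 helicase had differences of both signs. MCM2, the subunit that binds histones and is a main substrate of CDC7, had signals of 6991 and 6623 on the knock-down arrays, against 11004 and 11370 on the empty-vector arrays. Means were 6807 ± 259.9 with PIR knocked down and 11187 ± 258 with empty vector (SD, n = 2 arrays each), 1.64-fold lower with the knock-down, and 2.85% of measured genes had a difference as low. MCM7 was lower by less, at -0.33 and, on its other probe set, -0.38. MCM4 had -0.21, and its other measured probe sets had -0.12, -0.18 and 0.07, the last with no overlap of arrays. MCM5 had -0.14, and -0.07 on its second probe set. MCM3 had 15993 and 16323 with PIR knocked down, against 14538 and 14997 with empty vector, a log2 difference of 0.13, and MCM6 had 0.09 with overlapping arrays. The second MCM6 probe set, much dimmer, had -0.39. The median over the 6 was -0.18, and all 3 scalings of the arrays gave a negative median.

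Firing genes had the lowest median of the 3 groups, at -0.38. All 8 were negative on their brightest probe sets, but 3 of them did not keep that sign in every alternative. CDC45 and GINS4 turned positive when arrays were scaled to a common median, CDC45 also without knock-down replica 1 (0.027) or empty-vector replica 2 (0.038), and GINS4 without empty-vector replica 1 (0.14). GINS2 turned positive when its 2 dim probe sets were averaged in (0.20) or when probe sets ending in _x_at or _s_at were left out (0.31). CDC7, the catalytic subunit of the kinase that fires origins, had signals of 976 and 1139 on the knock-down arrays, against 2113 and 2105 on the empty-vector arrays. It was 1.98-fold lower in the knock-down pool, the largest difference of the 49 genes on their brightest probe sets, and 0.994% of measured genes had one as low. CDC7 had 1 probe set. DBF4, its activating subunit, had 5099.6 and 5007 with PIR knocked down, against 6734 and 6368 with empty vector, a log2 difference of -0.37. MCM10, which helps the helicase start unwinding, had -0.39, and its other probe sets had -0.27 and -0.55. CDC45 overlapped, with 1473 and 1762 with PIR knocked down, against 1569 and 1906 with empty vector.

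The GINS subunits, which together with CDC45 complete the active helicase, were close to each other except for 1. GINS2 had signals of 3363 and 3029 on the knock-down arrays, against 4268 and 4312 on the empty-vector arrays (log2 difference -0.42). GINS1 had -0.40 and GINS3 -0.36, with -0.17 on the second GINS3 probe set. GINS4 had -0.07, and its empty-vector arrays, at 700.2 and 521, differed by 0.41 on the log2 scale, the widest gap between empty-vector arrays among the 49 genes.

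**Figure D2:**
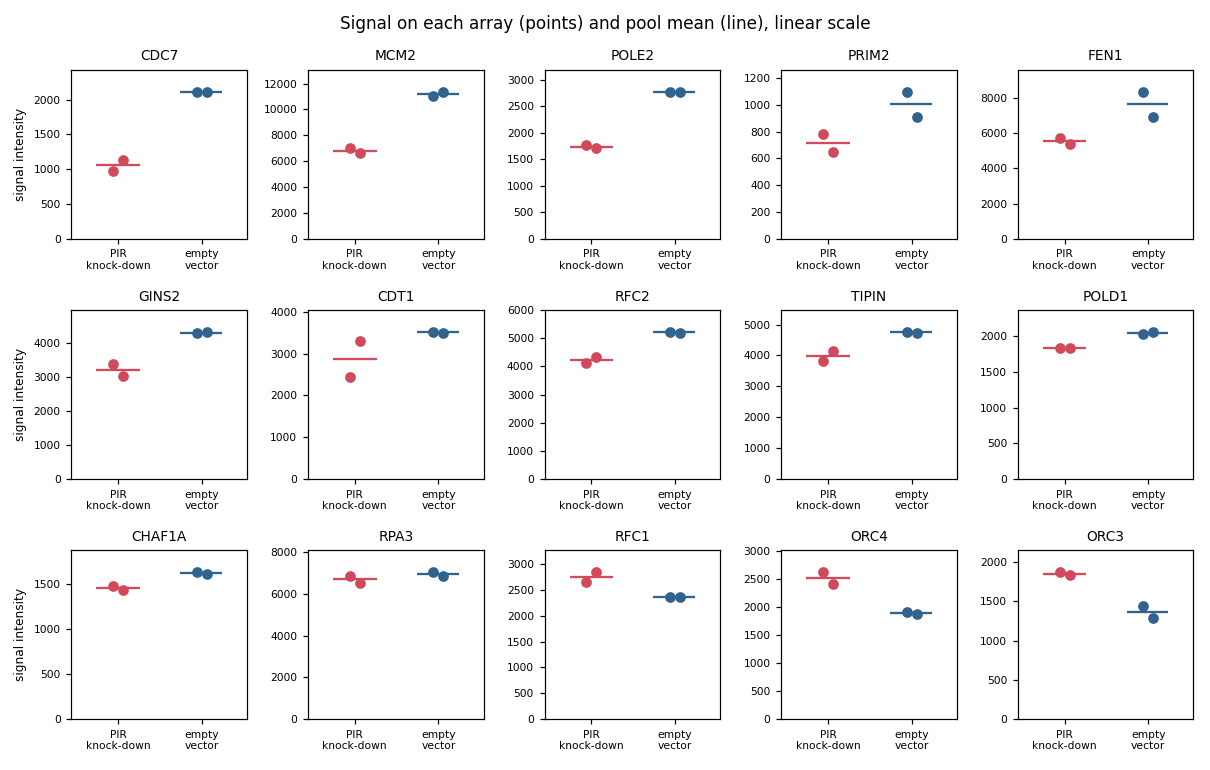
Signal intensity on a linear axis from 0 for 15 replication genes, with PIR knock-down arrays on the left and empty-vector arrays on the right of each panel; points are arrays and lines are pool means. CDC7, MCM2 and POLE2 separate widely, RPA3 overlaps, CDT1 has 1 low knock-down array, and RFC1, ORC4 and ORC3 are higher in the knock-down pool.

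The 3 polymerase epsilon genes among the 49 were lower in the knock-down pool. POLE2, the second subunit of the leading-strand polymerase, had signals of 1769 and 1710 on the knock-down arrays, against 2774 and 2769 on the empty-vector arrays. Means were 1739 ± 42.1 with PIR knocked down and 2771 ± 3.25 with empty vector (SD, n = 2 arrays each). It was 1.59-fold lower. POLE, the catalytic subunit, had 565 and 464 with PIR knocked down, against 805 and 725 with empty vector, and missed the size rule at 1.47-fold. POLE3, a small histone-fold subunit, had -0.32, and its partner POLE4, counted among the replication partners and not among the 49, had -0.38. The median of the 3 was -0.56, and -0.44 and -0.62 under the other scalings of the arrays.

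Polymerase alpha and primase genes were lower by less. POLA1, the catalytic subunit, had -0.41, and POLA2, its partner, had -0.15. PRIM1, which makes the RNA primer, had -0.23. PRIM2, the large primase subunit, had 782 and 644 in the knock-down pool, against 1098 and 912 in the empty-vector pool (-0.49). A further 4 probe sets annotated to PRIM2 and to another symbol were not used. None of the 4 pairs of arrays overlapped with its counterpart.

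The 3 polymerase delta genes among the 49 showed small differences of both signs on their brightest probe sets. POLD1, the catalytic subunit, had 1839 and 1833 in the knock-down pool, against 2038 and 2065 in the empty-vector pool, a difference of -0.16. POLD2 had 0.15 and POLD3 had -0.04. The small subunit POLD4, a replication partner outside the 49, had 366 and 369 with PIR knocked down, against 264 and 254 with empty vector, 1.39-fold higher with no overlap of arrays. The median, -0.04, was 0.09 when arrays were scaled to a common median. A second, dimmer POLD3 probe set had 58.3 and 69.0 in the knock-down pool, against 231 on both empty-vector arrays, which is 3.04-fold lower and meets the 2-fold rule. The knock-down signals of that probe set lay below the brightness limit of 118, where the added constant of 18.4 compresses differences.

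The clamp and its loader were also mixed. PCNA, the sliding clamp, had 22968 and 22676 in the knock-down pool, against 21207 and 19777 in the empty-vector pool (0.16). RFC1, the large subunit of the loader, had 2665 and 2852 with PIR knocked down, against 2376 and 2365 with empty vector. The RFC1 difference was 0.22, and 0.12 on the other measured probe set, with no overlap of arrays on either. It was -0.043 over all RFC1 probe sets and -0.47 when those ending in _x_at or _s_at were left out. Both of these values take in a dim RFC1 probe set, and the -0.47 is that probe set alone. Its signals were 15.5 and 7.2 with PIR knocked down, against 35 and 12.8 with empty vector. They overlapped and lay under the brightness limit of 118. The small subunit RFC2 had 4128 and 4335 with PIR knocked down, against 5227 and 5197 with empty vector, a difference of -0.30, with -0.42 on the second probe set. RFC3 had -0.24, but its other measured probe sets had -0.05 and 0.12, with overlapping arrays on both. RFC5 had -0.28 and RFC4 had -0.08. The third RFC5 probe set was 2.26-fold lower, with 335 and 301 in the knock-down pool, against 709.5 and 771 in the empty-vector pool, and the other 2 had -0.28 and -0.30.

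FEN1, the flap nuclease, had 5751 and 5392 in the knock-down pool, against 8372 and 6922 in the empty-vector pool (-0.45), and its second probe set had -0.26. LIG1, the ligase that seals lagging-strand pieces, had -0.23. The 3 subunits of RPA, which coats single-stranded DNA, showed the least: RPA1 had -0.05, RPA2 -0.02 and RPA3 -0.05. RPA3 had 6876 and 6538 with PIR knocked down, against 7052 and 6869 with empty vector. Their median was 0.07 when arrays were scaled to a common median, and the third, dim RPA1 probe set had -0.60 (146 and 134 in the knock-down pool, against 243 and 202 in the empty-vector pool). TIPIN, partner of TIMELESS in fork protection, had 3814 and 4137 with PIR knocked down, against 4761 and 4724 with empty vector (-0.25). TIMELESS had overlapping arrays, and its knock-down arrays (1276 and 898) showed the widest gap within a pool among the 49 genes, 0.50 on the log2 scale. CLSPN, the checkpoint mediator claspin, had 0.02 on its brightest probe set. The second measured CLSPN probe set had 108 and 98.8 in the knock-down pool, against 167 and 160.0 in the empty-vector pool, a difference of -0.58. CHAF1A, the large subunit of the chromatin assembly factor CAF-1, had 1473 and 1432 with PIR knocked down, against 1627 and 1604 with empty vector (-0.15), whereas its other measured probe sets had 0.07 and 0.13. CHAF1B had -0.11 with overlapping arrays.

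Origin licensing was then set against the fork and polymerase genes. The licensing median was -0.21 and the fork median -0.15, a difference of -0.06. Taken array by array, that difference was -0.14, 0.03, 0.02 and 0.07, so its sign changed with the arrays compared. It turned to 0.11 when the mean over a gene's probe sets replaced the brightest, a mean that takes in the 12 dim probe sets. The 2 groups were therefore not separated by these arrays. Of the licensing genes 9 of 15 had negative differences, and of the fork genes 22 of 26; when arrays were scaled to a common median the counts were 9 of 15 and 15 of 26. The firing median, -0.38, ran from -0.40 to -0.36 over the 4 array pairs, outside the range of the licensing medians (-0.28 to -0.13) and of the fork medians (-0.21 to -0.14). These ranges reflect only the spread between arrays of the same pools. By gene the groups overlapped: firing ran from -0.99 to -0.07, licensing from -0.72 to 0.44 and fork from -0.67 to 0.22. Firing had the lowest of the 3 medians in each of the 11 alternatives that gave all 3.

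**Figure D3:**
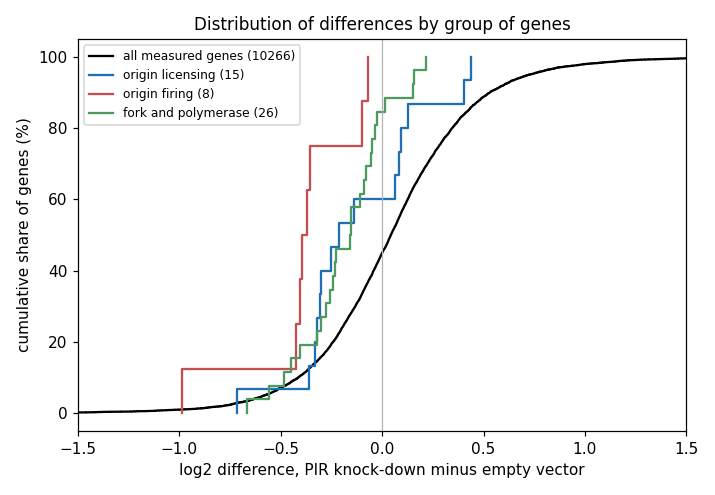
Cumulative share of genes (%) against the log2 difference (PIR knock-down minus empty vector) for the licensing, firing and fork genes and for all 10266 measured genes. The curves of all 3 groups lie left of that of measured genes through most of the range, firing farthest, and the licensing and fork curves cross.

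Probe sets of the same gene served as a second reading. The 49 genes had 90 probe sets, of which 78 were measured, and 21 genes had a measured probe set besides the brightest. Of these 29 further probe sets, 21 had the sign of the brightest and 8 the opposite sign, with a median gap of 0.15 on the log2 scale. The gap exceeded 0.5 in 5: those of CDT1, CLSPN, POLD3, RFC5 and RPA1 described above. Of the 78 measured probe sets, 51 had both knock-down signals below both empty-vector signals, against a background of 31.8% of measured probe sets, and 12 lay wholly above, against 37.7%. The size rule was met downwards by 6 of the 78, against a background of 5.58%, and the 2-fold rule by 2 of them (background 1.14%), those of POLD3 and RFC5. The POLD3 probe set, and that of CLSPN among the 51, had both knock-down signals under the brightness limit of 118. A dim GINS4 probe set among the 51 had 100.5 and 119.6 with PIR knocked down, against 130.4 and 123.8 with empty vector. Its mean log2 value was 7.093, against a limit of 7.090 for measured probe sets. These probe sets counted as measured through their empty-vector signals, so their place in these counts is no separate support. None met the size rule upwards, against a background of 7.59%.

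**Figure D4:**
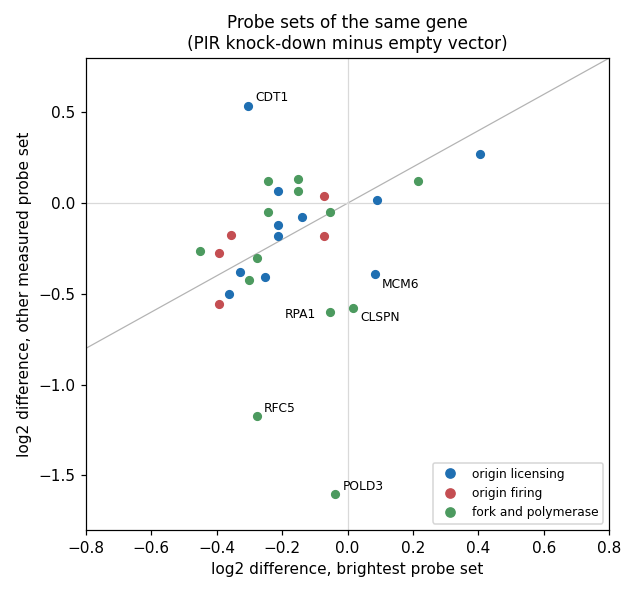
Log2 difference (PIR knock-down minus empty vector) of each further measured probe set against that of the brightest probe set of the same gene; the grey diagonal marks equality. POLD3 (-1.60), RFC5 (-1.17), RPA1 (-0.60), CLSPN (-0.58) and MCM6 (-0.39) lie well below the diagonal, and CDT1 (0.54) lies above it.

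Other genes of the pathway gave a similar picture. Of 35 replication partners outside the 49, 31 had a negative difference (88.6%, against 45% of measured genes), with a median of -0.26. Arrays were separated downwards in 25 (71.4%, against 30.7%), and the size rule was met downwards by 4 (11.4%, against 4.46%) and upwards by none (against 7.89%). These 4 were FBXO5, the inhibitor of the anaphase-promoting complex also called EMI1 (-0.64), SLBP, which binds the stem-loop of histone mRNAs (-0.63), TICRR, a firing factor also called treslin (-0.60), and CCNA2, cyclin A2 (-0.59). TICRR had signals of 408 and 371 on the knock-down arrays, against 539 and 662.5 on the empty-vector arrays. Of 7 genes of nucleotide supply with a probe set, 6 were negative (median -0.38), and RRM2B (-1.42) and RRM2 (-0.70), both subunits of ribonucleotide reductase, met the size rule downwards (28.6%, against 4.46%).

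Regulators of this programme were mixed. Of 19 E2F and RB factors, 18 were measured; the median of the 19 was -0.11. Arrays were separated downwards in 7 of the 18 (38.9%, against 30.7% of measured genes) and upwards in 5 (27.8%, against 40.2%), shares not far from the background. FOXM1, a factor of mitotic genes, met the size rule downwards (-0.61), and LIN37, a subunit of the DREAM complex, met it upwards (0.79). E2F1, named here outside the rule for named genes, had -0.22 with overlapping arrays. Mitotic genes had a lower median than the replication genes: for the 15 mitotic indicators it was -0.66, all were separated downwards, and 10 met the size rule (66.7%, against 4.46% of measured genes). Those 10 were MKI67, the antigen Ki-67 of dividing cells (-1.28), PLK1, a mitotic kinase (-1.21), and CENPF, AURKA, TOP2A, AURKB, CCNB1, CCNB2, CDC20 and KIF11.

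**Figure D5:**
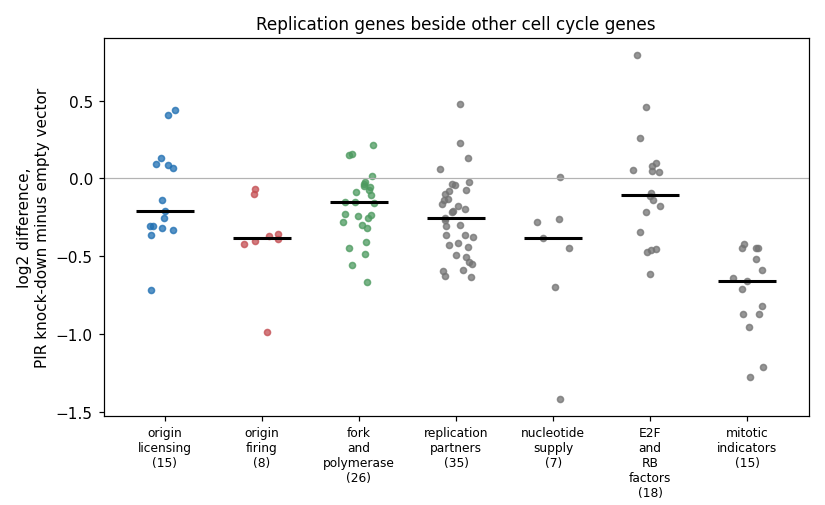
Log2 difference (PIR knock-down minus empty vector) of each measured gene in the licensing, firing and fork groups and in 4 lists of other cell cycle genes, with the number of measured genes in brackets; bars are medians. The mitotic indicators lie lowest, at a median of -0.66, and the firing genes and the nucleotide supply genes lie next, both at -0.38.

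Markers of cell type stood beside these values as follows. Of 8 myelomonocytic genes with a probe set, 6 were measured, with MPO and FCGR1A under the brightness limit on all arrays. The median was 0.47 over the 6 and 0.14 over the 8, of which 3 had negative differences. CD4, CSF1R and ITGAX met the size rule upwards (50% of the 6, against 7.89% of measured genes). CEBPA had 0.26 with no overlap of arrays, whereas the arrays of SPI1 (-0.13) and LYZ (0.01) overlapped. Summed signals of 7 monocyte maturation genes were 12193 to 12629 in the knock-down pool, against 4383 to 4578 in the empty-vector pool. CX3CR1, ITGAM, CD36 and CSF1R, the 4 measured genes of this list, were higher by the size rule (100%, against 7.89%). CSF1R stands in both lists. CD14 was at 6.25 in the knock-down pool, against 9.15 in the empty-vector pool, under the limit like CD163 and MRC1. The part of this shift in the replication values was not tested. All 5 T cell genes lay under the limit on all arrays, with sums of 176 to 189 in the knock-down pool, against 100.2 to 118 in the empty-vector pool. The 3 B cell genes summed to 579 to 711 with PIR knocked down, against 674 to 800.1 with empty vector. Of these, 2 were measured, CD79A and PAX5. The 4 fibroblast genes summed to 260 to 307 with PIR knocked down, against 285 to 311 with empty vector, and 1 of them, COL1A1, was measured. The 1 erythroid gene with a probe set, HBB, had 107 to 138.5 with PIR knocked down, against 67 to 92.6 with empty vector.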

How the data were processed

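U937 RNA was isolated with TRIzol and purified on RNeasy columns, per the labels' protocols; 3 preparations made up each pool, and 2 arrays were run on it, per the series design text. Per the submitters' processing notes, the authors computed the deposited signal intensities in GCOS, of a version not given in the sources used here. Those deposited intensity values are linear, not centred and carry no direction; the mean after trimming 2% of probe sets at each end was 500.07 on each array, which the values show to be a common scaling. The median signal was 62.5 and 68.5 for the knock-down arrays, against 70.8 and 72.1 for the others. The number of arrays limits the precision.

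Of 54675 probe sets, 62 controls were left out; 41091 had 1 gene symbol, 1801 several and 11721 none. Values were taken as log2(signal + 18.4), where the constant is the mean of the arrays' 25th percentiles, so differences of dim genes are understated. Differences are knock-down minus empty vector, of means over the 2 arrays. The median SD between arrays of a pool was 0.05 for the replication genes with PIR knocked down and 0.04 with empty vector.

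The members and lists were chosen with earlier results of these data known. Array values are given in full for genes that met the size rule, for the largest difference in each role group and for the 3 highest and 3 lowest differences; others were added where probe sets disagreed or to complete a group, after their values were seen. Of the other lists, genes that met the size rule are named, with E2F1, POLD4 and POLE4 added after their values were seen. The size rule and limma were tested on simulated data. Tools were R 4.3.3 with limma 3.58.1, and Python 3.11.15 with numpy 2.4.6, pandas 2.3.3 and matplotlib 3.10.9.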

Additional observations from a re-analysis of the deposited data

How the results depend on the processing

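The medians of the 49 replication genes and of its 3 groups stayed negative in every alternative that was run, while the contrast of licensing with fork genes did not keep its sign. Scaling each array to a common median moved the median of all measured genes by 0.12; the medians became -0.10 over the 49 genes, -0.085 for licensing, -0.26 for firing and -0.029 for fork genes, 30 genes were then negative, 11 had arrays separated upwards, and PIR had -4.03. Relative to the median of measured genes, the 49 genes stood at -0.27 both in the deposited scaling and after median scaling. Quantile normalization gave -0.21 over the 49 genes and 1 gene, CDC7, past the 2-fold rule. With no pseudocount 1 gene met the 2-fold rule and PIR had -4.40; with a pseudocount 4 times larger PIR had -3.58. Averaging all probe sets of a gene gave -0.12 for licensing, -0.32 for firing, -0.23 for fork genes, 0.11 for licensing minus fork, and 5 genes lower by the size rule. Leaving out probe sets that end in _x_at or _s_at kept 39 genes and gave -0.074, -0.31, -0.22 and 0.15 for the same quantities. Both of these alternatives take in dim probe sets, such as the third of RFC1. Counting firing genes with licensing gave -0.30 and a contrast of -0.15. Counting them with the fork genes gave -0.23, below the licensing median of -0.21, so the contrast then had the opposite sign. With single arrays left out, the medians ran from -0.24 to -0.20 over the 49 genes and from -0.19 to -0.15 for fork genes, the contrast from -0.089 to 0.041 (positive without knock-down replica 1, at 0.041, and without empty-vector replica 1, at 0.01), genes lower by the size rule from 3 to 6 (5 without knock-down replica 1, 6 without empty-vector replica 2), genes past the 2-fold rule from 0 to 1 (1 without knock-down replica 2) and genes separated upwards from 7 to 10 (10 without empty-vector replica 1). The limits on brightness left the counts of genes as they were. Shares of measured genes under these alternatives are not given here, so the counts have no background beside them.

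The limma fit without a block called 25 replication genes lower and 5 higher, and the fit with the replica number as a block called 26 and 5. Over measured genes as a whole the replica numbers did not pair the arrays: deviations of replica 1 from the pool means correlated at -0.01 between the pools. Over the 49 the same deviations correlated at 0.43, and whether the replica numbers pair the arrays for these genes was not tested. Low signal limits dim probe sets such as those of POLD3, RPA1, CLSPN, GINS4 and RFC3. Their differences rest on signals near or below the brightness limit.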
